A study of Mus musculus with 6 samples.

Results

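The cytosolic translation initiation and elongation factors were followed in mouse macrophages at the RNA level. Members were the rows of the gene table whose symbol begins with Eif1 to Eif6 or with Eef1 or Eef2, without the Eif2ak kinases, which gave 62 of 16906 genes. They included the factors themselves, the inhibitors of eIF4E and eEF2 that carry such symbols, and 4 methyltransferase genes. Of the 62, 61 passed the filter on low counts. Eef1akmt3 did not, with 2 to 7 reads per library.

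Translation begins when the ternary complex of eIF2, GTP and initiator tRNA joins the small ribosomal subunit with eIF1, eIF1A, eIF3 and eIF5, and this complex meets an mRNA held at its cap by eIF4E, eIF4G and the helicase eIF4A. eIF2B recharges eIF2 with GTP, and stress kinases that phosphorylate eIF2 block that step. In elongation eEF1A brings charged tRNAs to the ribosome, the eEF1B subunits recharge eEF1A, and eEF2 moves the ribosome along by a codon.

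The macrophages were grown from bone marrow of wild-type C57BL/6 mice over 7 days in medium with 10% serum and macrophage colony-stimulating factor at 10 ng/ml. Both groups then received exosomes, vesicles shed by cells, at 100 µg/ml for 12 h. In the stretched group, the donor epithelial cells had undergone cyclic stretch for 6 h. In the static group the donor cells were not stretched. Each group had 3 libraries, called stretched 1 to 3 and static 1 to 3 here by their title numbers. No group went without exosomes. Which epithelial cells were used, and of which species, was not given in the sources used here. The labels do not tie the replicates to separate mice or cultures, so p-values speak only to the spread among these 6 libraries, which may be technical.

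Each library held 16984561 to 17625991 estimated counts. Levels of a gene across libraries are given as CPM, counts relative to the library total after scaling for composition, and levels of different genes are compared as FPKM, which also divides by transcript length. A gene is said to have risen, fallen or passed where its p, adjusted over all genes, was under 0.05. All 8 macrophage markers were present, with a summed level of 18100 to 22200 CPM in stretched libraries and 20100 to 29200 CPM in static libraries. Only Mertk among them passed the test, higher in stretched libraries (log2 0.81, adjusted p = 0.0479, and 0.056 with the title numbers as a block). DESeq2 called 3 of the 8 higher and 1 lower, against 10.8% and 9.89% of all genes. Adgre1 lay below in every stretched library (log2 -0.64, adjusted p = 0.12 with edgeR). Cd68 and Fcgr1 lay above in all of them (log2 0.61 and 0.79, adjusted p = 0.112 and 0.0746). Static 3 stood apart from static 1 and static 2. In it all 12 neutrophil markers and all 6 monocyte markers were the highest of the static libraries, and the neutrophil sum was 13500 CPM, against 3680 and 5340 CPM in static 1 and static 2 and 4290 to 7860 CPM in stretched libraries. The monocyte sum was 1050 to 1490 CPM in stretched libraries, against 448, 569 and 1920 CPM in static 1 to 3. Without static 3, edgeR called 4 of the 6 monocyte markers higher, as it did 2095 of 13017 genes. Of 8 lung epithelial markers 6 were in the table, with sums of 19.3 to 38.8 CPM in stretched and 10.4 to 13.9 CPM in static libraries. Epcam made up most of these and was higher in stretched libraries (log2 1.43, adjusted p = 0.044, and 0.0605 with the block), while Sftpb and the keratins Krt8, Krt18 and Krt19 were below the filter. All 5 stroma markers had positive values and none passed, with sums of 4640 to 6670 CPM in stretched and 3530 to 4830 CPM in static libraries, and DESeq2 and the block each called 2 of them higher. The lymphocyte marker Ms4a1 was lower in stretched libraries (log2 -0.91, adjusted p = 0.0342). The sum of 8 cycling markers was 374 to 465 CPM in stretched and 470 to 492 CPM in static libraries, where 0 passed with edgeR, 3 had an unadjusted p under 0.05 and DESeq2 called 2 lower. Mast cell and basophil markers overlapped in sum at 48 to 60.1 CPM in stretched and 26.8 to 71.1 CPM in static libraries. The part of other cell types in the results below was not tested, and in RNA of whole cultures fewer cells of a type and less RNA per cell cannot be told apart.

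Macrophages given exosomes of stretched cells had less RNA of 8 of 44 initiation factor genes, of 2 of 9 elongation factor genes and of 1 methyltransferase gene. Counted among the 8 was Eif4a3, which sits in the exon junction complex. Counted among the 2, beside Eef1d, was Eef1e1, a component of the multi-tRNA synthetase complex. Eef1a1 and Eef2, both among the most abundant members, had log2 fold changes of 0.04 ± 0.29 and -0.05 ± 0.22 (standard error) and did not pass. In edgeR's quasi-likelihood test with Benjamini-Hochberg adjustment over all genes, 11 of 61 members fell (18%), against 5.38% of all 12892 genes tested. None rose, against 6.55% of all genes, and none was higher at an unadjusted p under 0.05 (16.5% of all genes) or in DESeq2 (10.8% of all genes). At that unadjusted p 29 members were lower (15.2% of all genes). The 11 that fell were Eef1e1, Eef1akmt1, Eif3j1, Eif2b1, Eif5, Eif3b, Eef1d, Eif3g, Eif4g1, Eif3l and Eif4a3, with levels 33.1% to 70.3% lower in stretched libraries. The median log2 fold change was -0.29 over the 61 members and -0.00 over all genes, and 50 members had a negative and 11 a positive value. In 26 members (42.6%) every stretched library lay below every static library, which held for 18.2% of all genes. In no member did every stretched library lie above, against 18.5% of all genes.

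The count of members that fell depended on the libraries and on the model. No label pairs the libraries, but same-numbered libraries deviated more alike than others, so the number was tried as a block. With this block 5 members passed, namely Eef1e1, Eif5, Eif3j1 and Eif3b of the 11 and Eif4g2, against 3.16% of all genes. The main fit, which gave the 11, had no block. DESeq2 called 19 members lower, against 9.89% of all genes. Without static 3 the count was 31, against 15.4% of all genes. It was 0 without stretched 1, stretched 2, static 1 or static 2, where 28, 3, 24 and 0 of all genes were called lower. Without stretched 3 Eif5 alone passed, and 258 of 13022 genes were called lower. Without static 2 no gene of the whole table passed in either direction. In each of these fits all 11 genes kept a negative value. In all 11 every stretched library lay below every static one. Leaving out a library could therefore hardly change the sign, and the kept sign adds no support. Static 3 was the lowest static library in 47 of the 61 members (77%), and in 46.1% of all genes.

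**Figure D1:**
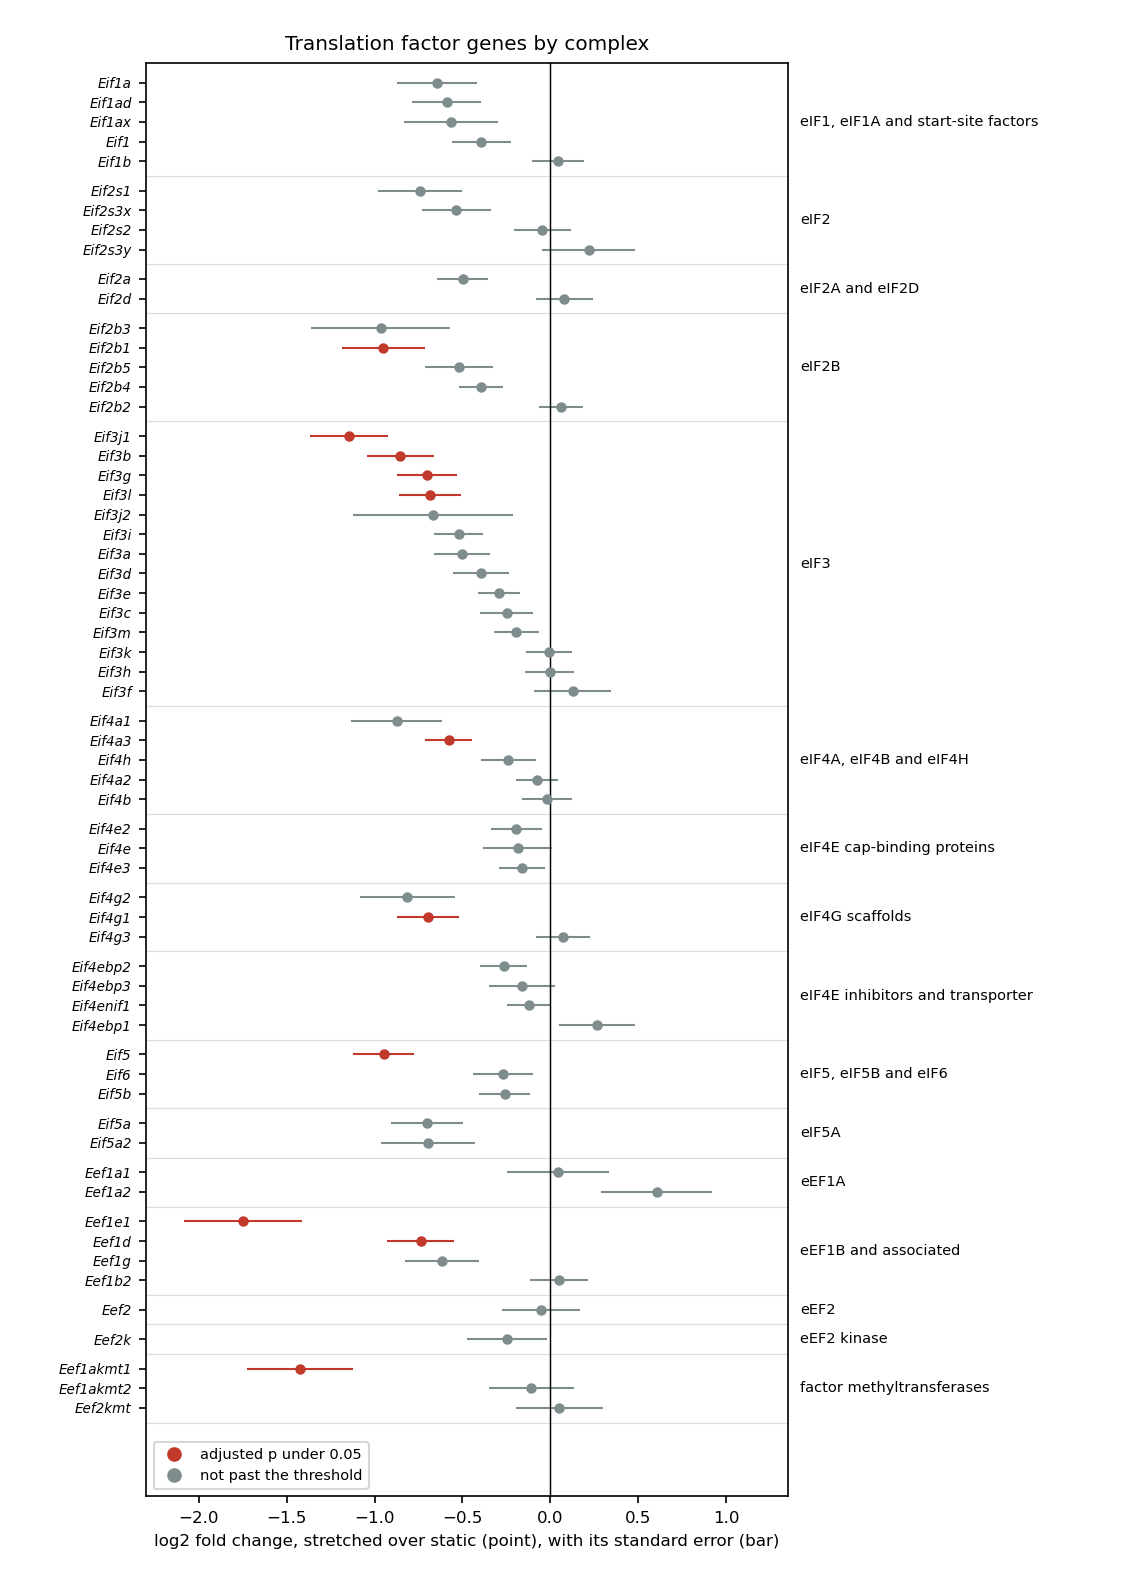
Log2 fold change of the 61 tested members, stretched over static, with its standard error as a bar, grouped by complex and with adjusted p under 0.05 in red. The 11 red points all lie below 0, between -1.75 for Eef1e1 and -0.58 for Eif4a3, and no member with a positive value passed.

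eIF3, the large multi-subunit complex that holds the initiation factors and the mRNA to the small ribosomal subunit, is the largest group here. Of its 14 genes 4 fell (28.6%, against 5.38% of all genes), and the median log2 fold change was -0.45. In 8 of the genes (57.1%) all stretched libraries lay below all static ones, which held for 18.2% of all genes. Eif3j1 (gene ID 78655, chromosome 2, 122028580 to 122053632) encodes the loosely bound eIF3j subunit. Its level was 39.2, 32.9 and 37.8 CPM in stretched 1 to 3, against 94.1, 93.8 and 55.4 CPM in static 1 to 3. The groups did not overlap, and the log2 fold change was -1.15 ± 0.22 (standard error, adjusted p = 0.0246). Its counts and those of its near copy Eif3j2 are fractional and sum to a whole number in all 6 libraries, so the split of reads between them is uncertain. Eif3j2 itself had 1.88 to 4.23 CPM in stretched and 2.54 to 7.36 CPM in static libraries, which overlapped (adjusted p = 0.353).

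Eif3b (gene ID 27979, chromosome 5, 140419305 to 140443358), a scaffold subunit of the eIF3 core, had 153, 125 and 137 CPM in stretched libraries, against 291, 268 and 189 CPM in static libraries. It was 1.81-fold lower in the stretched group (log2 -0.85 ± 0.19, adjusted p = 0.0344). Eif3g (gene ID 53356, chromosome 9, 20894349 to 20898590), an RNA-binding subunit that works in scanning, had 52.2, 41.1 and 44.6 CPM in stretched and 80.2, 84.2 and 60.1 CPM in static libraries. Every stretched value of both genes lay below the lowest static one, which was static 3. Eif3g was 1.63-fold lower (log2 -0.70 ± 0.17, adjusted p = 0.0422). Eif3l (gene ID 223691, chromosome 15, 79075223 to 79094400), a subunit outside the conserved core, had 100, 86.0 and 94.7 CPM in stretched and 181, 151 and 119 CPM in static libraries. Again the groups did not overlap (log2 -0.68 ± 0.18, adjusted p = 0.0483).

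The other eIF3 subunits did not pass. Eif3i, a core subunit that binds Eif3b, came closest, with 66.2, 64.5 and 60.3 CPM in stretched and 104, 91.0 and 78.9 CPM in static libraries (log2 -0.52 ± 0.14, adjusted p = 0.0526). Eif3a, the largest subunit, had 190, 155 and 162 CPM in stretched and 247, 266 and 204 CPM in static libraries (log2 -0.50 ± 0.16, adjusted p = 0.0797). In both genes the groups were separate. By contrast the subunits Eif3h, Eif3k and Eif3f overlapped throughout, with log2 fold changes of -0.00 ± 0.14, -0.01 ± 0.13 and 0.13 ± 0.22. Eif3h had 198, 220 and 177 CPM in stretched and 199, 188 and 210 CPM in static libraries. Per length, Eif3h, Eif3f and Eif3k were the most abundant subunits, at means of 171, 148 and 121 FPKM in stretched libraries and 197, 157 and 140 FPKM in static libraries.

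The ratio of Eif3b to Eif3h within a library, which does not depend on how libraries are scaled, was 0.295, 0.218 and 0.296 in stretched and 0.559, 0.544 and 0.348 in static libraries on the FPKM scale. The groups did not overlap, and static 3 lay nearest the stretched libraries. This pair and the other ratios given here were chosen after their values had been seen, so they carry no test.

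**Figure D2:**
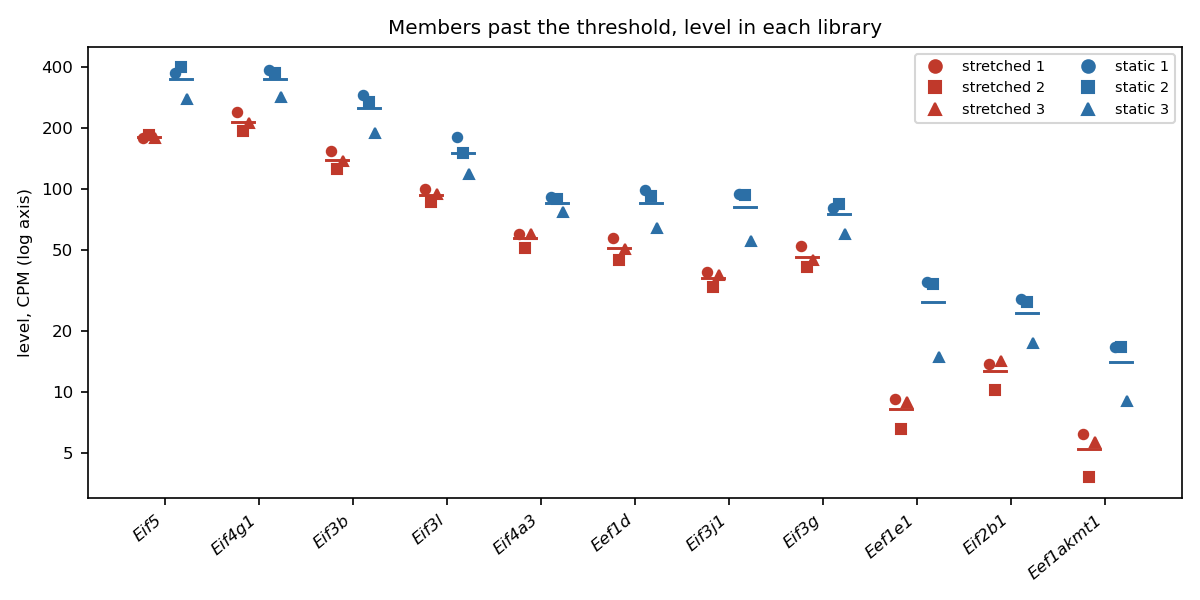
Level of the 11 members that fell, in CPM on a log axis, ordered by their static mean, in stretched libraries (red, left in each pair) and static libraries (blue), with group means as lines. In each gene the 3 red points lie below the 3 blue points, and static 3, the blue triangle, is the lowest of the static libraries.

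The factors that set up the start codon and deliver the initiator tRNA did not pass, apart from 1 subunit of eIF2B and Eif5. Eif5 (gene ID 217869, chromosome 12, 111538101 to 111546753) encodes the protein that triggers GTP hydrolysis by eIF2 at the start codon. It had 179, 185 and 178 CPM in stretched libraries, against 374, 396 and 278 CPM in static libraries. The stretched libraries were tightly grouped (SD 3.52 CPM, n = 3) and well below static 3. Eif5 was 1.93-fold lower (log2 -0.95 ± 0.17, adjusted p = 0.0225), the smallest adjusted p among the members. Eif5b, the GTPase of subunit joining, had 187 to 193 CPM in stretched and 209 to 265 CPM in static libraries (log2 -0.26 ± 0.15, adjusted p = 0.263), and Eif6, which keeps the large subunit from joining early, overlapped (log2 -0.27 ± 0.17, adjusted p = 0.313).

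eIF2B is the exchange factor that returns GTP to eIF2. Its alpha subunit gene Eif2b1 (gene ID 209354, chromosome 5, 124570214 to 124579131) had 13.8, 10.2 and 14.2 CPM in stretched and 28.7, 27.8 and 17.4 CPM in static libraries. It was 1.93-fold lower without overlap (log2 -0.95 ± 0.23, adjusted p = 0.0431). The other subunits did not pass. Eif2b3 had a value as large but far more spread, 10.1, 6.67 and 11.9 CPM in stretched and 23.8, 23.4 and 8.83 CPM in static libraries (log2 -0.97 ± 0.39, adjusted p = 0.14), and static 3 lay among the stretched libraries. Eif2b4 was separate but small in difference (log2 -0.39 ± 0.13, adjusted p = 0.0806). Eif2b5, the catalytic subunit, overlapped (log2 -0.52 ± 0.19, adjusted p = 0.11), and Eif2b2 was level at 30.4 to 36 CPM in stretched and 31.1 to 32.3 CPM in static libraries (log2 0.06 ± 0.12).

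Among the eIF2 subunits none passed. Eif2s1, the alpha subunit that stress kinases phosphorylate, had 73.4, 60.0 and 72.6 CPM in stretched and 134, 136 and 74.4 CPM in static libraries (log2 -0.74 ± 0.24, adjusted p = 0.0818). The groups were separate, with static 3 just above stretched 1. Eif2s2, the beta subunit, was 151 to 160 CPM in stretched and 127 to 182 CPM in static libraries (log2 -0.05 ± 0.16). Eif2s3x and Eif2s3y, the X-linked and Y-linked copies of the gamma subunit, had log2 fold changes of -0.54 ± 0.20 and 0.22 ± 0.27, both with overlap. Of the start-site factors, Eif1 was separate at 185 to 253 CPM in stretched and 260 to 304 CPM in static libraries (log2 -0.39 ± 0.17, adjusted p = 0.154), and Eif1a, Eif1ax and Eif1ad had values of -0.65, -0.56 and -0.59 with overlap at static 3. Eif2a, an alternative carrier of initiator tRNA, was separate (log2 -0.50 ± 0.14, adjusted p = 0.0639), and Eif2d, another such factor, was not (log2 0.08 ± 0.16).

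In the cap-binding complex the scaffold fell and the cap-binding proteins did not pass. Eif4g1 (gene ID 208643, chromosome 16, 20672720 to 20692883) encodes the scaffold that ties eIF4E, eIF4A and eIF3 together. It had 238, 192 and 211 CPM in stretched libraries, against 385, 370 and 282 CPM in static libraries, with no overlap (log2 -0.69 ± 0.18, adjusted p = 0.0454). Eif4g2, a relative that lacks the eIF4E-binding part, was the most abundant scaffold per length (means of 113 FPKM in stretched and 228 FPKM in static libraries) and had a larger value with more spread (log2 -0.81 ± 0.27, adjusted p = 0.0871). With the replicate block its adjusted p was 0.0456. Eif4g3, the closest relative of Eif4g1, was 152 to 157 CPM in stretched and 130 to 176 CPM in static libraries (log2 0.07 ± 0.15). The ratio of Eif4g1 to Eif4g3 was 1.70, 1.32 and 1.45 in stretched and 3.06, 3.02 and 1.73 in static libraries on the FPKM scale, and the groups did not overlap, although stretched 1 and static 3 were close.

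Eif4a3 (gene ID 192170, chromosome 11, 119288363 to 119300043), a relative of the eIF4A helicases that sits in the exon junction complex, had 60.2, 51.2 and 60.2 CPM in stretched and 90.9, 88.8 and 76.8 CPM in static libraries (log2 -0.58 ± 0.13, adjusted p = 0.037). It had the smallest difference of the 11, and also the smallest standard error. Eif4a1, the main eIF4A helicase, had 530, 452 and 449 CPM in stretched and 1050, 1010 and 569 CPM in static libraries. The groups did not overlap, but static 3 was far from static 1 and static 2, and the gene did not pass (log2 -0.88 ± 0.26, adjusted p = 0.0646). Its paralog Eif4a2 was level at 160 to 175 CPM in stretched and 174 to 179 CPM in static libraries (log2 -0.07 ± 0.12). Within a library the ratio of Eif4a1 to Eif4a2 was 4.35, 3.41 and 3.37 in stretched and 7.97, 7.68 and 4.40 in static libraries on the FPKM scale. Eif4b and Eif4h, which assist the helicase, did not pass (log2 -0.02 ± 0.14 and -0.24 ± 0.16).

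The cap-binding protein Eif4e had 118, 120 and 111 CPM in stretched and 157, 146 and 95.3 CPM in static libraries (log2 -0.19 ± 0.20, adjusted p = 0.553), and Eif4e2 and Eif4e3 overlapped as well. The inhibitors that hold eIF4E away from eIF4G did not pass either. Eif4ebp1 had 122, 135 and 105 CPM in stretched and 122, 107 and 70.9 CPM in static libraries (log2 0.27 ± 0.22, adjusted p = 0.434). Eif4ebp2 and Eif4ebp3 lay lower in all stretched libraries by small amounts (log2 -0.26 ± 0.13, adjusted p = 0.216, and log2 -0.16 ± 0.19, adjusted p = 0.598). Eif4enif1, the carrier that takes eIF4E into the nucleus, overlapped (log2 -0.12 ± 0.12). The ratio of Eif4ebp1 to Eif4e was 2.24, 2.41 and 2.06 in stretched and 1.69, 1.6 and 1.59 in static libraries on the FPKM scale, with static 3 close to the other static libraries.

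**Figure D3:**
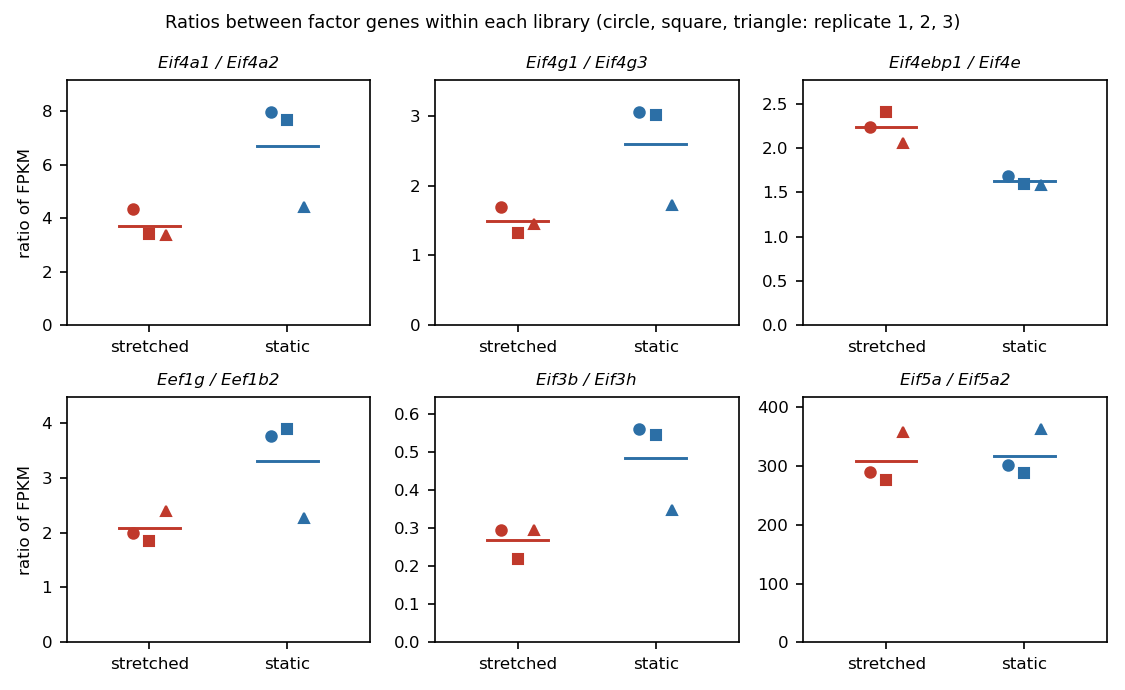
Ratios of FPKM between pairs of factor genes within each library, stretched left (red) and static right (blue), with group means as lines, each axis starting at 0. The groups are separate for Eif4a1 over Eif4a2, Eif4g1 over Eif4g3, Eif4ebp1 over Eif4e and Eif3b over Eif3h, and overlap for Eef1g over Eef1b2 and Eif5a over Eif5a2.

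Elongation factors differed from each other, also within the eEF1B group. Eef1e1 (gene ID 66143, chromosome 13, 38645691 to 38659028), which resembles eEF1B subunits and is a component of the multi-tRNA synthetase complex, had the largest difference among the members. It had 9.21, 6.60 and 8.98 CPM in stretched libraries (97 to 156 reads), against 34.7, 33.9 and 14.9 CPM in static libraries (280 to 650 reads). No library overlapped, although static 3 lay 74.5% of the way from the mean of static 1 and static 2 to the stretched mean. Eef1e1 was 3.36-fold lower (log2 -1.75 ± 0.33, adjusted p = 0.0246).

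Eef1d (gene ID 66656, chromosome 15, 75894796 to 75909784), the delta subunit of the exchange factor, had 57.4, 44.8 and 50.9 CPM in stretched and 98.7, 92.3 and 64.2 CPM in static libraries, which were separate (log2 -0.74 ± 0.19, adjusted p = 0.0485). Eef1g, its structural gamma subunit, had 363, 329 and 333 CPM in stretched and 641, 543 and 388 CPM in static libraries without passing (log2 -0.62 ± 0.21, adjusted p = 0.091). Eef1b2, the beta subunit with the same exchange activity as Eef1d, overlapped at 176 to 229 CPM in stretched and 177 to 216 CPM in static libraries (log2 0.05 ± 0.16). The ratio of Eef1g to Eef1b2 was 1.99, 1.85 and 2.39 in stretched and 3.75, 3.88 and 2.26 in static libraries on the FPKM scale, where static 3 lay among the stretched libraries.

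Eef1a1, which brings charged tRNA to the ribosome, was the most abundant member per length at means of 3480 FPKM in stretched and 3910 FPKM in static libraries. In CPM it had 6730, 7680 and 4170 in stretched and 6430, 5930 and 5650 in static libraries, so the stretched libraries lay on both sides of the static ones. The log2 fold change was 0.04 ± 0.29 (adjusted p = 0.933), and it was negative in 5 of 13 alternative fits. Eef2, the translocase, had 1660, 1720 and 1110 CPM in stretched and 1590, 1470 and 1610 CPM in static libraries (log2 -0.05 ± 0.22, adjusted p = 0.898). In both genes stretched 3 was the low library. Eef1a2, the form of muscle and nerve, was near the filter at 27 to 54 reads per library (log2 0.61 ± 0.32, adjusted p = 0.231). Eef2k, the kinase that inhibits eEF2, had 5.79 to 10.1 CPM in stretched and 9.15 to 9.79 CPM in static libraries (log2 -0.25 ± 0.23, adjusted p = 0.496).

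Eif5a, the hypusine-carrying factor that helps ribosomes past stalled peptide bonds, had 367, 328 and 404 CPM in stretched and 702, 631 and 456 CPM in static libraries. The groups were separate but the gene did not pass (log2 -0.70 ± 0.20, adjusted p = 0.0639). The rare paralog Eif5a2 had nearly the same value with overlap (log2 -0.70 ± 0.27, adjusted p = 0.123), and the ratio of Eif5a to Eif5a2 was 276 to 358 in stretched and 288 to 362 in static libraries. Eef1akmt1 (gene ID 68043, chromosome 14, 57549595 to 57571582), a lysine methyltransferase of eEF1A, had 6.2, 3.81 and 5.70 CPM in stretched and 16.6, 16.6 and 9.05 CPM in static libraries. It was 2.68-fold lower without overlap (log2 -1.42 ± 0.30, adjusted p = 0.0314). The related Eef1akmt2 and the eEF2 methyltransferase Eef2kmt overlapped (log2 -0.11 ± 0.24 and 0.05 ± 0.25). Counts are fractional in 6 members, namely Eif5a, Eif1, Eif5b, Eef2kmt, Eif3j1 and Eif3j2. For the first 4 of these, how the authors divided the reads was not stated, and their values are uncertain to that extent.

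**Figure D4:**
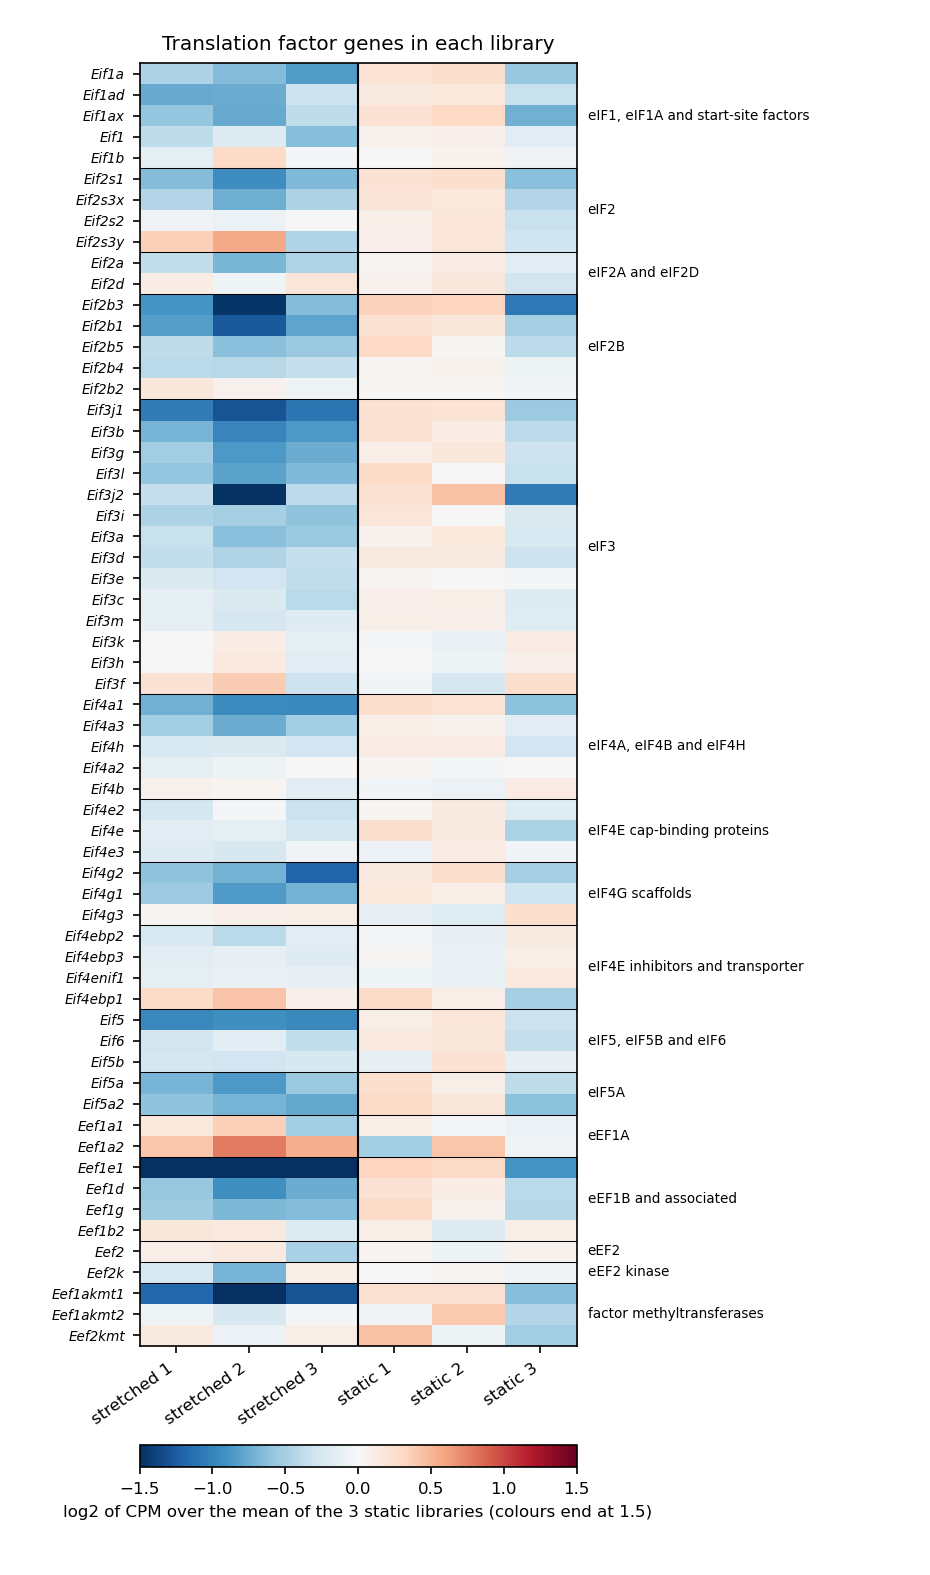
Each of the 61 tested members in each library, as log2 of its CPM over the mean of the 3 static libraries, grouped by complex, with stretched libraries left of the line. Blue cells are frequent in the stretched columns of eIF3 and eIF2B and, more faintly, in static 3, while Eef1a1, Eef2, Eif4b and Eif3h are pale in most libraries.

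None of the 10 members with the highest static mean per length passed, and the 11 that fell ranked between 14 and 50, with static means of 14.8 to 105 FPKM. All members together summed to 8025, 7494 and 6301 FPKM in stretched and 10430, 9590 and 8728 FPKM in static libraries, which were separate. On the CPM scale, which adjusts for composition, the sums were 15660, 16310 and 11700 in stretched and 18590, 17830 and 15070 in static libraries, and stretched 1 and stretched 2 lay above static 3. Eef1a1 alone made up 49.0%, 52.9% and 40.5% of the FPKM sum in stretched libraries and 40%, 39.3% and 43.5% in static libraries.

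The transcript table split each gene into annotated RefSeq transcripts. Of 192 member transcripts 135 were tested, and none passed in either direction after adjustment over all 29604 transcripts, of which 0% were called lower and 0.00338% higher. At an unadjusted p under 0.05, 36 member transcripts were lower and 2 higher, against 7.57% and 7.85% of all transcripts, and the median log2 fold change was -0.43 over member transcripts and -0.00 over all transcripts. The main transcript of Eif5 held 96% to 97.7% of the gene's counts in stretched and 97.0% to 99.4% in static libraries, so its value of -0.99 was close to that of the gene. Both main transcripts of Eif4g2 had negative values (-0.83 and -0.92). Eif4h and Eif4a2, 2 of 26 members with more than 1 tested transcript, divided instead. Of Eif4h, NM_033561.2 held 45.0%, 39.0% and 50.5% of counts in stretched and 71.5%, 70.1% and 45.8% in static libraries, where static 3 was like the stretched libraries (log2 -0.78 ± 0.30, adjusted p = 0.296). Its other transcript, NM_001312867.1, had a log2 value of 0.35 ± 0.18 (adjusted p = 0.44). Of Eif4a2, XM_006521785.1 held 27.5%, 33.5% and 26.7% in stretched and 16.2%, 20.8% and 19.9% in static libraries, with no overlap (log2 0.53 ± 0.15, adjusted p = 0.181). The most abundant Eif4a2 transcript, XM_006521784.3, held 44%, 35.5% and 47.5% in stretched and 57.8%, 47.1% and 56.4% in static libraries. Its shares overlapped (log2 -0.44 ± 0.18, adjusted p = 0.321). NM_001123038.2 held 0% in static 1 and 8.52% in static 2, so the estimated split was unsteady between libraries.

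**Figure D5:**
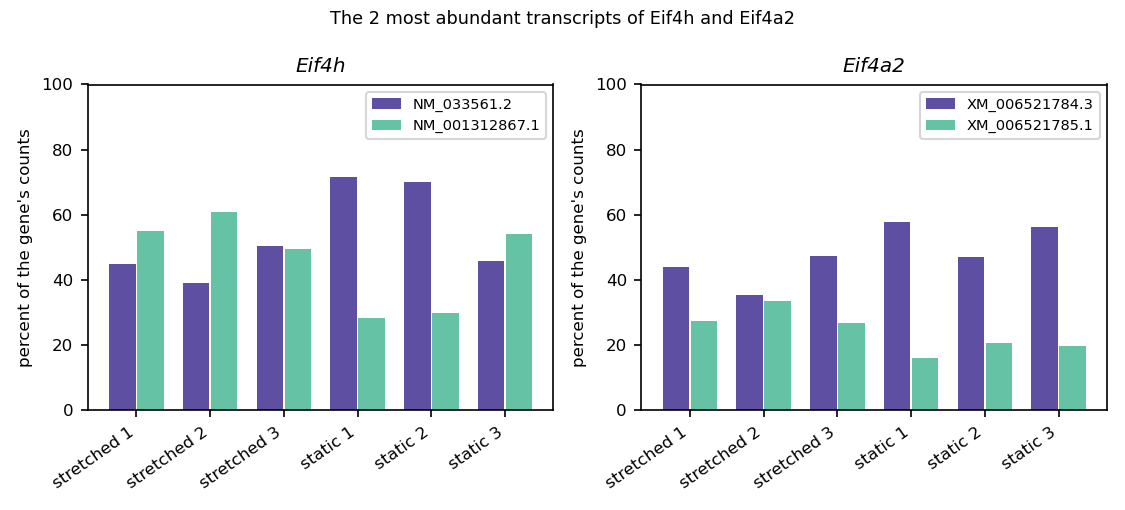
Percent of the gene's counts held by the 2 most abundant transcripts of Eif4h and of Eif4a2 in each library, stretched libraries left of static ones. The Eif4h transcript NM_033561.2 is at 71.5% and 70.1% in static 1 and static 2 and at 39.0% to 50.5% in the other libraries.

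Start-site sequence was read from the RefSeq promoter table of GRCm38.p6, which matched 47 of the 62 members, 9 of those 11 that fell among them. In windows of 250 bases before to 50 after the annotated start, 12 of the 47 members (25.5%) held CACGTG, the E-box bound by Myc and its relatives, on either strand, against 8.09% of 27025 genes in that table. Among the 9 that fell, 1 held it. The variant CATGTG was in 6 members (12.8%), against 15.9% of genes, and TGATGNAAN, the composite motif of Atf4 and C/EBP factors, was in 2 (4.26%), against 4.5%. A terminal oligopyrimidine start, meaning a C at the annotated start followed by 4 pyrimidines, was found in 2, Eif3f and Eif2s3x (4.26%), against 3.01%. Only the exact annotated base was read, so a start set off by some bases was counted as absent. The Eef2 window below holds a run of pyrimidines after its annotated start and was not counted. These shares therefore cannot tell how common such starts are. CACGTG reads the same on both strands, the other motifs were searched on both, and hits of different motifs were counted independently of any overlap. These matches describe letters only. Shown are 100 bases before to 30 after the start for Eef1e1 and Eif4g1, which fell, and for Eif3f and Eef2, which did not pass, with CACGTG and CATGTG in capitals and, in Eif3f, also the pyrimidine start. They lie at chr13:38658999-38659128 (minus strand), chr16:20672627-20672756, chr7:108934315-108934444 and chr10:81176531-81176660 (plus strand).
Eef1e1: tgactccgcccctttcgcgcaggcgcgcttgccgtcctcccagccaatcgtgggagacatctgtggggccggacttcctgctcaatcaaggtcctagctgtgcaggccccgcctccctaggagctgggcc
Eif4g1: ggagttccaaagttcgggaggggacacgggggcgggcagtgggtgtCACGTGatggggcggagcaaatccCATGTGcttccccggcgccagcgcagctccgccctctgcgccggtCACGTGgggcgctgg
Eif3f: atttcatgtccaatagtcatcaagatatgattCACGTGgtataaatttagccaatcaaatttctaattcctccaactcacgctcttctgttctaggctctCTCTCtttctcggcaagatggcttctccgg
Eef2: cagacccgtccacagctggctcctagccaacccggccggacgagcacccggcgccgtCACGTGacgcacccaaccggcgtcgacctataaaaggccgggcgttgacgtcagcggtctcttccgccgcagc
Eif4g1 had CACGTG at -54 and 16 and CATGTG at -30, counted from the start, Eif3f had CACGTG at -68, Eef2 at -43, and Eef1e1 had none of the motifs in its window.

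Other genes of translation control were read from lists. The kinases and phosphatases of eIF2 alpha did not pass (0 of 9 in either direction with edgeR), with a median log2 value of 0.29. At an unadjusted p under 0.05, 4 of the 9 were higher and 0 lower, against 16.5% and 15.2% of all genes. DESeq2 called 2 of the 9 higher, where it called 10.8% of all genes, and 0 lower. Eif2ak4, the kinase that senses uncharged tRNA, named here after its values were seen, had 17.7, 18.1 and 16.6 CPM in stretched and 12.4, 12.4 and 12.8 CPM in static libraries, separate but short of the threshold (log2 0.48 ± 0.14, adjusted p = 0.0591). The 2 most abundant of the list were Ppp1ca, a catalytic phosphatase subunit (log2 -0.28 ± 0.14, adjusted p = 0.211), and Ppp1r15b, the constitutive partner that directs it to eIF2 alpha (log2 0.76 ± 0.24, adjusted p = 0.0806). Of Atf4 and its target genes, 4 of 14 rose (28.6%, against 6.55% of all genes) and 0 fell. The median log2 value was 0.06, 6 of the 14 were negative, and Atf4 itself lay below in every stretched library without passing (log2 -0.29 ± 0.16, adjusted p = 0.251). The amino acid synthesis genes Asns, Psat1 and Phgdh did not pass (log2 0.02, -0.15 and -0.01). Slc7a11, the cystine transporter, was highest in stretched 2 at 802 CPM, with 459 and 183 CPM in stretched 1 and stretched 3, against 42.5, 50.2 and 83.5 CPM in static libraries (log2 3.03 ± 0.54, adjusted p = 0.0219). The stress factor Atf3 (log2 1.53 ± 0.24, adjusted p = 0.0188), the transcription factor Cebpb (log2 1.21 ± 0.20, adjusted p = 0.0193) and the lipoprotein receptor Vldlr (log2 0.90 ± 0.16, adjusted p = 0.0204) rose as well.

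Of 20 genes of the mTORC1 pathway, the kinase complex that frees eIF4E from its inhibitors, 2 rose (10%, against 6.55% of all genes) and 1 fell (5%, against 5.38%), shares near those of all genes. The median was -0.12. Ddit4, an inhibitor of the pathway, had 59.6, 66.2 and 65.8 CPM in stretched and 28.1, 26.5 and 24.9 CPM in static libraries, far apart in all libraries (log2 1.27 ± 0.12, adjusted p = 0.011). Castor1, an arginine sensor that inhibits the pathway, rose at a low level (9.39 to 11 CPM in stretched and 3.28 to 5.02 CPM in static libraries, adjusted p = 0.0205). Mlst8, a core subunit of the kinase complex, fell to 13 to 14.7 CPM in stretched libraries, against 22.1 to 30.1 CPM in static libraries (log2 -0.87 ± 0.16, adjusted p = 0.0241), and here static 3 was the highest library.

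A list of 16 genes, most of them for poly(A) binding, termination, recycling and reinitiation, also held Dap, which is not such a factor. Abcf1, an ATPase that promotes initiation, fell (log2 -0.64 ± 0.15, adjusted p = 0.0383) and Dap rose (log2 0.62 ± 0.15, adjusted p = 0.0436). That was 6.25% in each direction, near the shares of all genes (5.38% lower and 6.55% higher). The median of that list was -0.33. Of 17 tested helper genes 2 fell (11.8%, against 5.38% of all genes) and 0 rose (6.55% of all genes), and the median was -0.46. Dhx33, an RNA helicase, had 18.8, 15.2 and 14.2 CPM in stretched and 35.7, 34.4 and 35.2 CPM in static libraries, with static 3 level with the other static libraries (log2 -1.13 ± 0.15, adjusted p = 0.0145). Dph2, of the pathway that makes the diphthamide residue of eEF2, fell to 4.22 to 5.96 CPM in stretched libraries, against 8.73 to 14.1 CPM in static libraries (log2 -1.27 ± 0.25, adjusted p = 0.0265). None of the 9 mitochondrial translation factors passed with edgeR in either direction. At an unadjusted p under 0.05, 2 of them were lower, as were 15.2% of all genes. DESeq2 called 1 lower and 0 higher, where it called 9.89% and 10.8% of all genes. All 9 had negative values, with a median of -0.34. The most abundant were Tufm, the elongation factor that delivers tRNA (log2 -0.29 ± 0.14, adjusted p = 0.204), and Gfm1, the translocase (log2 -0.63 ± 0.21, adjusted p = 0.0855). The 11 genes of these lists that passed also passed with the replicate block and without static 3. Dap did not pass with library size as the only scaling, without the filter or with limma on FPKM (adjusted p = 0.0526 to 0.172), and Vldlr did not with limma on FPKM (adjusted p = 0.067 and 0.0573). Without static 2 none of the 11 passed, and Ddit4 alone passed without each of the other libraries.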

How the data were processed

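The gene and transcript tables deposited by the authors hold an estimated count per feature and library that is not normalised; it is named a read count, per the file headers, and was whole in all libraries for 87.8% of genes and 14.4% of transcripts only. A second deposited value has no named unit and was taken to be the authors' FPKM, since it scales as the count over length and library total. The aligner, counter and strand setting were not given in the sources used here, and the builds GRCm38 and mm10 come from the submitters' processing notes. Group averages were not used.

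Estimated counts were rounded and filtered with filterByExpr (minimum count 10), leaving 12892 genes. Groups were compared with edgeR 4.0.16 (R 4.3.3), quasi-likelihood test, TMM factors, Benjamini-Hochberg over all genes, threshold 0.05, with no covariate. Standard errors of log2 fold changes were obtained from the F statistic. CPM is the count over the TMM-scaled total. FPKM carries no such scaling, so log2 differences on the FPKM scale lie lower overall than on the CPM scale. Scripts were tested on simulated data. Named are all members past the threshold, the 2 most abundant of each complex and all inhibitors, and from other lists up to 4 past the threshold or the 2 most abundant. Other members are named only to complete a complex. Members and lists were chosen with earlier results of these data known. All 62 member identifiers matched the RefSeq annotation of GRCm38.p6, whose 1-based coordinates are given.

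Deviations of same-numbered libraries from their group means correlated at 0.284, 0.192 and 0.194 across genes, more than any other pairing. On that ground alone the title numbers served as a block in an alternative fit, and no label states a pairing. Alternatives were DESeq2 1.42.0, other scalings, no filter, the replicate block, limma 3.58.1 on log2(FPKM + 0.1) and log2(FPKM + 1), and leaving out each library. Replicates differed beyond sampling noise (chi-square per gene 16.4 to 115).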

Additional observations from a re-analysis of the deposited data

How the results depend on the processing

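Of the 61 tested members, 11 were called lower. The count was 19 with DESeq2, 23 with library size as the only scaling and 5 with the replicate block. It was 22 with limma on log2(FPKM + 0.1), 22 on log2(FPKM + 1), 12 with RLE factors and 11 without the filter. Over all genes, 694 of 12892 were called lower in the main fit. DESeq2 called 1275 of them lower, library size only 1297, the block 408, limma 1203 and 1197, and RLE factors 726. Without the filter 649 of 16879 genes were called lower. Leaving out 1 library gave 0 to 31 members called lower, with 31 without static 3, 1 without stretched 3 and 0 without each of the other libraries. Over all genes, 2011 were called lower without static 3, 258 without stretched 3 and 0 to 28 without each of the other libraries. Without any 1 library other than static 3, 15 to 24 members were lower at an unadjusted p under 0.05, as were 10.1% to 15.7% of all genes. No member was called higher in any of the 13 fits, and no member transcript was called in any fit of the transcript table. All 11 kept a negative value in the 13 fits, which the separation of their groups all but fixed in advance. None passed in all of the fits. With library size only, the median of all genes was -0.19 and calls over all genes were 1297 lower and 556 higher, against 694 lower and 844 higher. The members' median then lay -0.29 from that of all genes, as it did with TMM. With limma on FPKM the median of all genes was -0.18 and -0.14. Among members not past the threshold, 49 of 650 values changed sign, Eef1a1, Eef1b2, Eif3f, Eif3h, Eif3k, Eif4b, Eif4g3 and Eef2 among them. The replicate block added Eif4g2 and ended the calls of Eef1akmt1, Eif2b1, Eef1d, Eif3g, Eif4g1, Eif3l and Eif4a3 (adjusted p = 0.0515 to 0.0717). The cause of these shifts was not tested. Of the members that passed, Eef1akmt1 had the fewest reads, 56 in stretched 2.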
